A study of Mus musculus with 4 samples.

Results

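The genes described here are 7 transcripts that kidney researchers read as signs of tubule injury: Havcr1, Lcn2, Spp1, Vcam1, Clu, Cd44 and Cryab. They were taken by symbol from the 31053 genes of each count matrix, and each symbol matched 1 row, so all 7 were found in both libraries. The data are droplet single-cell RNA libraries of dissociated whole kidneys from newborn mice, 1 per genotype. The control library came from a mouse whose genotype is labelled Six2Cre (SixCre in the sample's title), in which a recombinase is driven by the Six2 promoter of nephron progenitors. The floxed library came from a mouse with the same Cre and floxed alleles of Tet2 and Tet3, which encode enzymes that oxidise methylated cytosine. Both groups therefore carry Six2Cre, and no library without Cre was used here.

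After injury the tubule epithelium loses mature functions, takes up genes of its own development and releases adhesion and matrix proteins, and these genes rise in it. Several are also part of normal development or of normal segments, so a transcript in a newborn kidney can come from either setting. Values are therefore given by nephron segment first and between genotypes second.

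Because each genotype has a single library, nothing here has a replicate check or a p-value across animals, and intervals reflect counting error alone. The matrices held 25736 control and 22543 floxed barcodes, of which 174 occurred in both, and 19493 and 14393 cells were kept, with medians of 5990 and 4776 UMIs (molecular barcodes, each counted as 1 RNA molecule). Cells were grouped without the 7 genes and named "X-like" from marker lists, so the names are rebuilt ones. In all, 17 types had at least 50 cells in each library, and 2764 control and 2197 floxed cells stayed unnamed. The targeted genes were lower in the floxed library, Tet3 at 91.5 and 42.6 CPM in nephron progenitor-like cells (CPM are UMIs scaled to the same total in every type and library). Stroma-like cells held 53.5 and 40.4 CPM of Tet3, and Tet2 stood at 28.8 and 22.8 CPM in the progenitor-like cells. These 3′ tags may lie outside the deleted exons, so they check the labels only in part. The summed erythroid markers, which tubule cells do not make, were at 1923 CPM in control and 4490 CPM in floxed proximal tubule-like cells; the part of such free RNA in the members' values was not tested.

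The comparison used 12 types, the nephron and duct types with stroma-like and macrophage-like cells, and in them there were 84 pairs of gene and type, and 39 reached 25 CPM in at least 1 library. A difference was counted as past the size rule when its 95% interval also lay wholly beyond 1.5-fold. By that rule 3 pairs were higher and 5 lower in the floxed library, while 3.48% of all pairs of gene and type that reached the minimum in the 12 types passed it. Spp1 made up all 5 lower pairs. Lcn2 in macrophage-like and Spp1 in stroma-like cells reached the minimum only in the library where they were higher. Of these 8 differences, 2 kept direction and size under all 13 other ways of processing that were tried: lower Spp1 in proximal tubule-like cells and higher Vcam1 in macrophage-like cells. The first of them was absent from the proximal cluster that both libraries filled. Settings that only lowered the minimum level, to 10 CPM or to none, could not change a pair that had already passed.

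**Figure D1:**
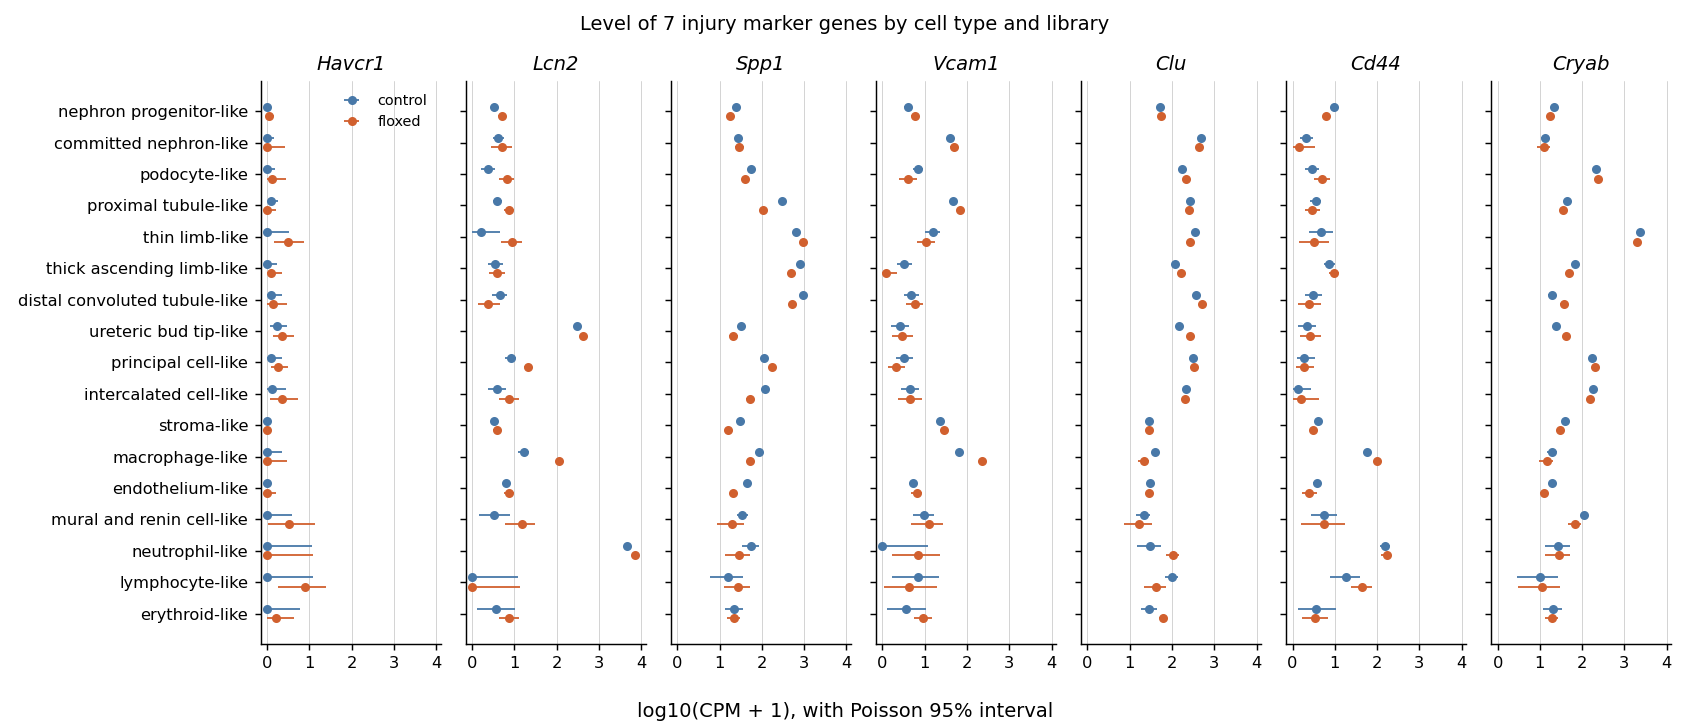
Level of each gene as log10(CPM + 1) on the horizontal axis, for 17 types on the vertical axis; blue points are the control and orange points the floxed library, with Poisson 95% intervals. Cryab stands far to the right in thin limb-like cells (2345 and 1923 CPM), Lcn2 in neutrophil-like cells (4627 and 7165 CPM), and Havcr1 lies near 0 throughout.

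Havcr1 encodes KIM-1, a receptor on the luminal side of injured proximal tubule cells that binds dying cells, and it is the most widely used transcript of acute proximal injury. It lies at chr11:46739822-46779578 (GRCm38). All kept cells together held 9 control and 24 floxed UMIs of it. Proximal tubule-like cells held 3 UMIs in 721 control cells and 0 in 551 floxed cells. The floor of 3 counts, which is not an interval bound, equals 0.528 CPM in those floxed cells. No type reached the minimum level, and no cell of any named type held more than 1 UMI. Its order over types carries no information at these counts, and no genes of similar pattern are named because it was at or near 0 throughout.

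Lcn2 encodes lipocalin-2 (NGAL), a secreted protein that binds iron-carrying siderophores; injured distal nephron and collecting duct release it into urine, and neutrophil granules hold it. The gene lies at chr2:32384637-32387739. Its promoter window is shown because this gene had the sharpest pattern by type. The window is from RefSeq (GRCm38.p6), chr2:32387690-32387989, on the minus strand and printed in gene direction, from 250 bases before to 50 after the start; capitals mark a match to the C/EBP motif TTGCNNAA at bases 35 to 42.
Lcn2: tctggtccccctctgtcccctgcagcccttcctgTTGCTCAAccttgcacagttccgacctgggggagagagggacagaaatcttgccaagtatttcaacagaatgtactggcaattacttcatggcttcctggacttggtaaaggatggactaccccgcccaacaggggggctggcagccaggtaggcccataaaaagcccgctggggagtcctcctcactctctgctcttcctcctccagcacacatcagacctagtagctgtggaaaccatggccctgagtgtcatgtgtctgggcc
C/EBP factors are activators of granule genes in myeloid cells. Of all 32851 windows, 10.8% held that motif on either strand, so the match is a description only.

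Neutrophil-like cells held 4627 (control) and 7165 (floxed) CPM of Lcn2. Next came ureteric bud tip-like cells, the branching ends of the collecting system, with 299 and 406 CPM, and the ranges of these 2 types did not overlap with each other or with the type that followed. Outside these, macrophage-like and principal cell-like cells, none of the 17 types passed 13.7 CPM in either library. In ureteric tip-like cells 34.6% of control and 46.6% of floxed cells had an Lcn2 UMI after each cell was thinned to 2000 UMIs, against 0.361% and 0.547% of stroma-like cells (median depths of 8345 and 6200 UMIs in the tip and 5612 and 4430 in stroma). Unthinned, the tip shares were 66.1% and 69.3%. For every 100 UMIs of the neutrophil genes S100a8 and S100a9, tip-like cells held 1894 and 1209 Lcn2 UMIs, while neutrophil-like cells held 4.08 and 6.44. The tip transcript was thus present in the control library, at a ratio to neutrophil genes far from that of neutrophils.

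Proximal tubule-like cells, by contrast, held 2.94 and 6.51 CPM of Lcn2 and thick ascending limb-like cells 2.53 and 2.88 CPM. Principal cell-like cells, the water-transporting cells of the duct, held 7.14 and 19.9 CPM, and 77.4% of the floxed UMIs lay in the top 5% of cells. None of these reached the minimum.

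In macrophage-like cells Lcn2 stood at 15.3 CPM in control and 112 CPM in floxed cells, 7.30-fold higher (interval 5.25 to 10.3). Of the genes tested in that type, 5.28% passed the size rule in either direction. Of the floxed UMIs, 199 of 208 lay in the 103 cells that also held S100a8 or S100a9, as did 29 of 44 control UMIs, and the summed neutrophil marker list rose from 501 to 3441 CPM in the same cells. Without cells holding those 2 genes, Lcn2 was at 7.04 and 6.26 CPM, so the difference ended there. It was also lost, at 2.22 and 1.03 CPM, when only the 10000 deepest barcodes of each library were used.

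**Figure D2:**
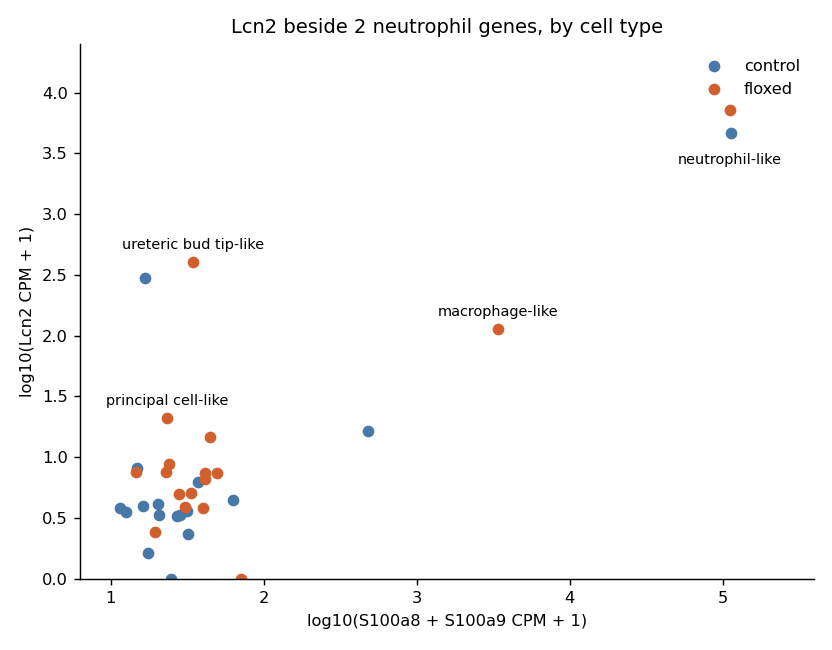
Each point is 1 type in 1 library, with log10(S100a8 + S100a9 CPM + 1) on the horizontal and log10(Lcn2 CPM + 1) on the vertical axis; blue is control and orange floxed. Ureteric bud tip-like cells lie high at the left (299 and 406 CPM of Lcn2), and the macrophage-like points lie between the low types and the neutrophil-like cells.

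Spp1 encodes osteopontin, a secreted phosphoprotein that binds integrins and CD44 and limits crystal growth in urine; it is made by loop and distal segments in health and by injured proximal tubule. The gene lies at chr5:104435111-104441053. Its first promoter window is shown because Spp1 carried all 5 of the lower pairs. The window is RefSeq's, chr5:104434861-104435160 on the plus strand, and capitals mark a match to TATAAA at bases 40 to 45.
Spp1: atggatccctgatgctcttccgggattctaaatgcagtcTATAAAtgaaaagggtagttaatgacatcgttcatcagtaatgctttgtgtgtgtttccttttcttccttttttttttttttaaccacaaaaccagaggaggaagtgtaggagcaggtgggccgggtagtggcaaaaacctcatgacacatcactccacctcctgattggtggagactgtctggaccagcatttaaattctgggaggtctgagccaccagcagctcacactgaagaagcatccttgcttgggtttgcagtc
That motif was found in 13.6% of all windows. Neither window shown held a match to the AP-1 motif TGANTCA (7.81% of windows) or to the STAT motif TTCNNNGAA (8.3%), which says only that these letters are not in them.

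Spp1 was a transcript of the loop and distal nephron in both libraries. Thin limb-like cells held 624 and 947 CPM in control and floxed, distal convoluted tubule-like cells 935 and 503 CPM, and thick ascending limb-like cells 818 and 478 CPM. These 3 types overlapped with one another. All lay above proximal tubule-like cells, at 304 and 106 CPM, which overlapped with principal cell-like cells, at 114 and 172 CPM. Within the thick ascending limb, cluster 11, led by Klk1, Pappa2 and Nos1, held 2087 and 819.8 CPM, and cluster 5, led by the uromodulin gene Umod, held 314 and 127 CPM. Committed nephron-like cells, the early epithelium, held only 25.7 and 28.2 CPM, within the range of types that should lack the gene: stroma-like cells held 29.6 and 15.2 CPM and endothelium-like cells 44.7 and 19.8 CPM.

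Between genotypes, Spp1 fell past the size rule in 5 of the 12 types. In proximal tubule-like cells it was 2.86-fold lower in the floxed library (interval 2.62 to 3.12), where 4.6% of genes tested passed the rule. The fall was 1.71-fold in thick ascending limb-like cells (1.62 to 1.80; 3.52% of genes passed) and 1.86-fold in distal convoluted tubule-like cells (1.75 to 1.98; 3.18%). Intercalated cell-like cells, which move acid, went from 114 to 52.3 CPM, 2.19-fold lower (1.73 to 2.79; 4.31%). Stroma-like cells, which Six2Cre is not known to reach, were 1.94-fold lower (1.73 to 2.19; 3.37%). Endothelium-like cells, outside the 12 types, were lower past the same rule too, by 2.26-fold (1.87 to 2.76; 3.03%). Spp1 reached the minimum there only in the control library, where it was higher. Unnamed epithelial cluster 7 went the other way, from 22.7 to 52.5 CPM, 2.31-fold higher (1.76 to 3.04; 1.79%), with 81.8% of its floxed UMIs in the top 5% of cells. In that cluster Spp1 reached the minimum only in the floxed library, where it was higher.

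Markers of other cell types also changed in these classes, not all in the direction of Spp1. In stroma-like cells the summed proximal tubule markers went from 123 to 55.8 CPM. Distal convoluted tubule-like cells held 658 and 91.2 CPM of the collecting duct water channel Aqp2, and 209 and 106 CPM of their own transporter Slc12a3, and their summed collecting duct markers went from 2985 to 1888 CPM. Intercalated cell-like cells held 3893 and 2441 CPM of Aqp2, above the 137 and 172 CPM of the intercalated factor Foxi1, and their summed collecting duct markers went from 5403 to 3815 CPM. The thick limb transporter Slc12a1 went from 7.58 to 69.0 CPM in the same cells and Umod from 2.21 to 26.8 CPM. The part of these markers in the Spp1 values was not tested.

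Set against stroma, a type that should lack the gene, the log2 ratio of the thick ascending limb differed by 0.18 (interval 0.00 to 0.37) and that of the distal convoluted tubule by 0.06 (-0.12 to 0.25). Summed over each segment, the lower Spp1 there was thus no larger than in stroma. The part of free tubule RNA in the stroma value was not tested, so this comparison cannot show whether a segment changed. In proximal tubule-like cells the log2 ratio lay below that of stroma, by -0.56 (-0.76 to -0.35). The thick ascending limb clusters taken singly also lay below it: cluster 5 was 2.47-fold lower in the floxed library, -0.35 from stroma (-0.60 to -0.10; 3.0% of genes passed), and cluster 11 was 2.55-fold lower, -0.39 from stroma (-0.58 to -0.20; 2.8%). The high cluster 11 held 86 of 246 control but 173 of 344 floxed cells of that segment, and the segment as a whole fell by less than either cluster. Thick ascending limb-like cells turned to 556 and 602 CPM under a stricter cell filter. Distal convoluted tubule-like cells turned to 1656 and 2427 CPM under a looser filter and to 508 and 742 CPM with the 10000 deepest barcodes, and intercalated cell-like cells to 111 and 169.8 CPM when each library was clustered alone.

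The proximal difference was not seen in the cluster that both libraries filled. Cluster 1, led by Ugt2b34 and C1s1, had 410 control and 246 floxed cells, and Spp1 there was at 151 and 147 CPM. Cluster 4, led by Miox, Slc17a1 and Slc22a6, had 290 control but 21 floxed cells, at 443 and 216 CPM. Spp1 was 2.05-fold lower there (interval 1.60 to 2.67), past the size rule, on 63 floxed UMIs. Its log2 ratio differed from that of stroma by -0.08 (-0.47 to 0.32). The share of all genes passing in cluster 4 was not computed. Cluster 2, led by Trh, Kap and Chil4, had 21 control but 284 floxed cells, at 104 and 70.9 CPM. The class value thus set mostly cluster 4 of the control against cluster 2 of the floxed library, and genotype and cluster cannot be told apart there. After thinning, 26.6% of control and 9.89% of floxed proximal tubule-like cells had an Spp1 UMI (54.9% and 25.6% unthinned), against 6.69% and 3.15% of stroma-like cells; median depths were 10527 and 7635 UMIs in the proximal cells. In the same proximal cells the summed stroma markers went from 299.9 to 176 CPM and the endothelium markers from 90.7 to 42.6 CPM; their part in the result was not tested.

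Thin limb-like cells went the other way in level but not in share. Their Spp1 was 1.52-fold higher in the floxed library (interval 1.40 to 1.65), short of the size rule, which 2.77% of genes passed there. After thinning, 42.7% of control but 12.3% of floxed cells had a UMI. Of the floxed UMIs, 91.0% came from the top 5% of cells, against 32.6% in the control, and 1 floxed cell held 315 UMIs. A few floxed cells with very high counts therefore set the mean. Principal cell-like cells, at 114 and 172 CPM, were also short of the rule (4.78% of genes passed).

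**Figure D3:**
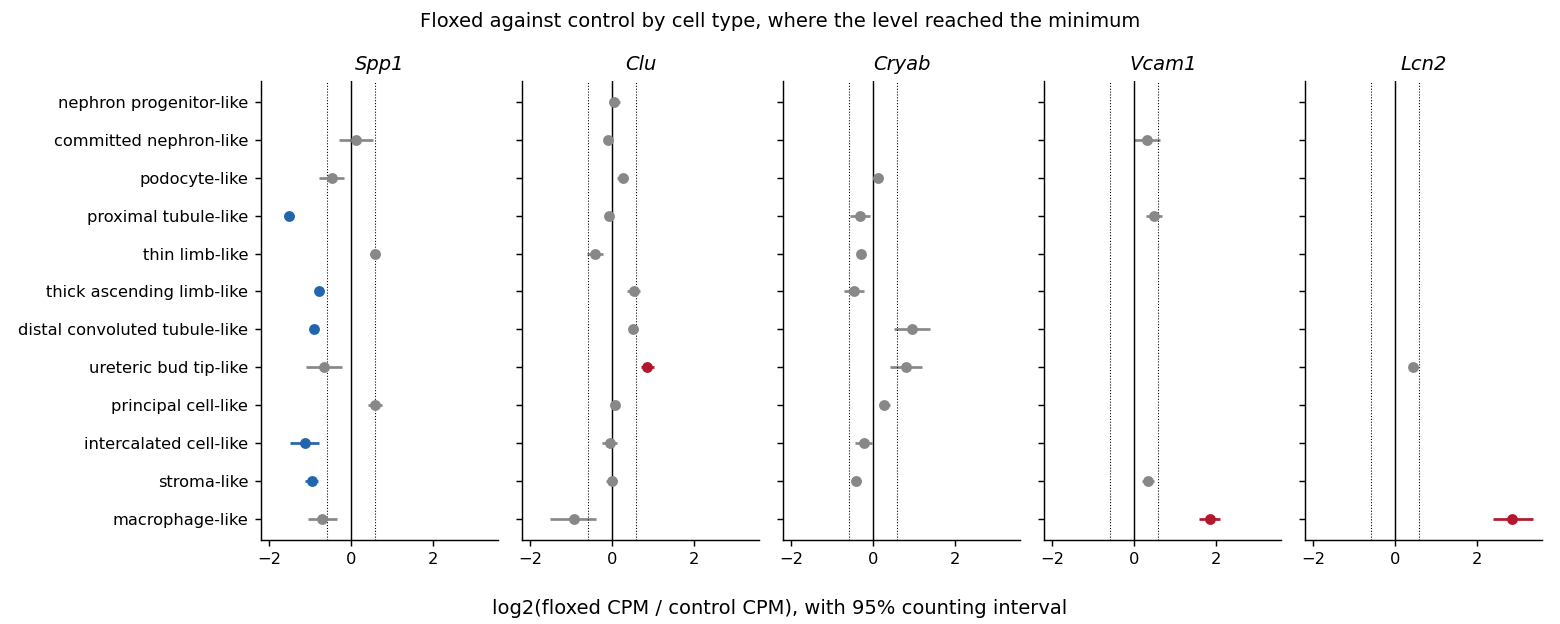
Log2 ratio of floxed to control CPM on the horizontal axis for 5 genes and 12 types, with 95% counting intervals; blue points were lower and red points higher past the size rule, grey points were not, and dotted lines mark 1.5-fold. Spp1 is the gene with blue points, in 5 types including stroma-like cells, and Vcam1 and Lcn2 are red in macrophage-like cells.

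Vcam1 encodes an adhesion receptor for integrin α4β1. It marks proximal cells that fail to recover after injury in adult kidney and is also present on macrophages. The gene lies at chr3:116110020-116129688. Its epithelial levels followed the proximal lineage in both libraries: committed nephron-like cells held 38.7 and 48.4 CPM and proximal tubule-like cells 47.0 and 66.0 CPM, and these 2 overlapped. Stroma-like cells were lower, at 22.2 and 28.0 CPM, without overlap. Thick ascending limb-like cells held 2.33 and 0.222 CPM and ureteric bud tip-like cells 1.60 and 1.94 CPM.

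Within the proximal class, Vcam1 was highest in cluster 1, at 66.4 and 114 CPM, and stood at 34.7 CPM in floxed cluster 2 and 30.5 CPM in control cluster 4; the 21 floxed cells of cluster 4 held 68.6 CPM. Vcam1 was among the leading genes of cluster 1 although it had no part in the clustering. Committed nephron-like cluster 15, led by Osr2 and Cdh6, held 53.0 and 55.5 CPM. Vcam1 was thus present in committed and proximal clusters of the control kidney as well. In cluster 1 the thinned share of cells with a UMI was 10.5% in control and 21.3% in floxed cells, while the difference in level did not pass the size rule. Over the whole proximal class the floxed level was 1.40-fold that of the control (interval 1.23 to 1.60), which did not pass the rule, nor did committed nephron-like cells, where 1.84% of genes passed.

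Among the other injury transcripts counted, Spp1 was the most frequent in cells with Vcam1, as it was over the whole proximal class. Of 265 control proximal tubule-like cells with a Vcam1 UMI, 156 also had Spp1, and of 184 such floxed cells 61 did; over the whole class 396 of 721 control and 141 of 551 floxed cells had it. The other transcripts were in few of these cells. Of the 265 control cells, 3 had Havcr1, 13 had Cd44, 7 had Lcn2, 17 had Krt20 and 9 had Ccl2, while 16 had the progenitor and repair factor Sox9. Of the 184 floxed cells, 0 had Havcr1, 2 had Cd44, 8 had Lcn2, 10 had Krt20, 2 had Ccl2 and 16 had Sox9. Seen from the partner's side, Vcam1 was held by all 3 control cells with Havcr1, 17 of 31 with Krt20, 13 of 24 with Cd44 and 9 of 17 with Ccl2. It was held by 7 of 22 control cells with Lcn2 and 16 of 39 with Sox9, beside 265 of all 721. In floxed cells these were 10 of 22 with Krt20, 2 of 9 with Cd44, 2 of 3 with Ccl2, 8 of 16 with Lcn2 and 16 of 50 with Sox9. All 551 floxed cells together included 184 with Vcam1. These counts are not thinned and carry the depth of each library and the depth and cluster of each cell. Control cells had median depths of 14185.5 UMIs in cluster 4 and 8852.5 in cluster 1. Cluster 4 included 21 of the 31 control cells with Krt20 and 20 of the 24 with Cd44. Cluster 1 included 171 of the 265 with Vcam1. The part of depth and cluster in these counts was not tested.

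In macrophage-like cells Vcam1 was at 62.8 CPM in control and 227 CPM in floxed cells, 3.61-fold higher (interval 3.02 to 4.32). The thinned shares were 9.95% and 24.5%. Without cells holding S100a8 or S100a9 the levels were 63.3 and 253 CPM, so this difference, unlike that of Lcn2, was as large without them. Over all macrophage-like cells the summed macrophage markers went from 11543 to 15268 CPM. Of these 8 markers 3 were higher and 0 lower, beside 5.28% of all genes tested. The summed stroma markers went from 580.6 to 288.5 CPM in these cells. The part of these shifts in the Vcam1 difference was not tested. Macrophages do not descend from Six2-positive progenitors.

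**Figure D4:**
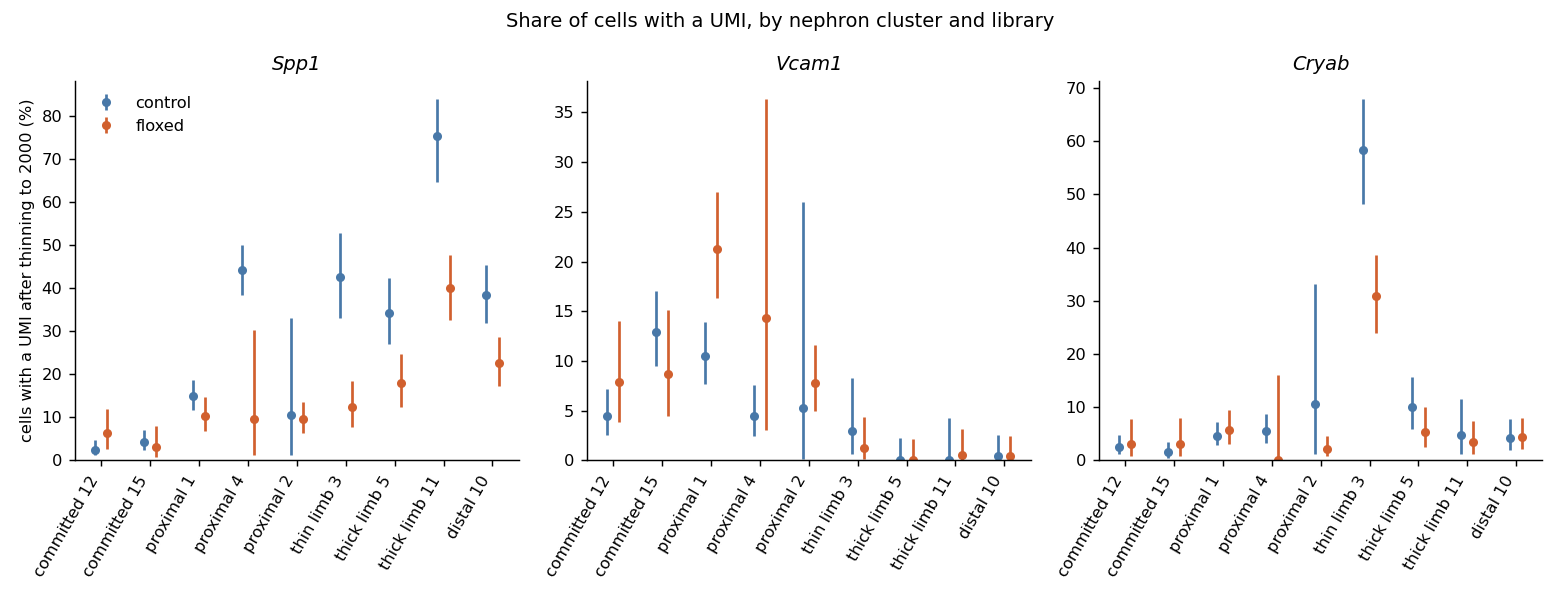
Percent of cells with at least 1 UMI after thinning each to 2000 UMIs, on the vertical axis, for 9 nephron clusters on the horizontal axis, control in blue and floxed in orange with Clopper-Pearson 95% intervals. Spp1 shares lie lower in floxed thick limb and thin limb clusters, Vcam1 peaks in proximal cluster 1 (10.5% and 21.3%), and Cryab stands out in the thin limb (58.3% and 30.9%).

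Cd44 encodes the receptor for hyaluronan and osteopontin, which appears on injured tubule and is constant on leukocytes. The gene lies at chr2:102811141-102901669. It was a leukocyte transcript here: neutrophil-like cells held 157 and 166 CPM, macrophage-like cells 57.2 and 99.6 CPM and lymphocyte-like cells 17.7 and 43.3 CPM, with no overlap between neighbours in that order. No nephron type reached the minimum. Thick ascending limb-like cells held 6.41 and 8.65 CPM, overlapping with progenitor-like cells at 8.69 and 5.35 CPM, and proximal tubule-like cells held 2.50 and 1.93 CPM. The 52 floxed urothelium-like cells held 52.2 CPM, while the 7 control ones held 0 UMIs, too few cells to compare.

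Clu encodes clusterin, a secreted chaperone that rises in damaged tubules. The gene lies at chr14:65968483-65981548. It was the most widespread of the 7, above the minimum in all 12 types. The highest levels were in committed nephron-like cells, at 471 and 441 CPM, and distal convoluted tubule-like cells, at 363 and 523 CPM, which overlapped. Principal cell-like cells held 319 and 335 CPM, thin limb-like cells 350.2 and 262 CPM and proximal tubule-like cells 270.1 and 257 CPM. Progenitor-like cells, one stage before commitment, held 52.3 and 54.5 CPM, and stroma-like cells 27.6 and 27.6 CPM. The step from progenitor to committed epithelium was thus present at like size in both libraries, and 3.33% of genes passed the rule in progenitor-like cells, Clu not among them.

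Clu was higher in the floxed library in ureteric bud tip-like cells, at 143 and 260.3 CPM (1.82-fold, interval 1.64 to 2.03), where 2.22% of genes passed. The ureteric lineage does not arise from Six2-positive cells. The thinned shares were 24.4% and 37.2%. The direction held under all 13 other ways of processing, but the size rule was missed under 5, with the smallest difference, 142 and 174 CPM, when each library was clustered alone. Settings that only lowered the minimum level could not change this difference.

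Cryab encodes αB-crystallin, a small heat shock protein of the inner medulla, where cells face high salt. The gene lies at chr9:50745951-50756636. Thin limb-like cells held 2345 and 1923 CPM, with no overlap with the next type. Podocyte-like cells, the filter cells of the glomerulus, held 211 and 230.0 CPM, principal cell-like cells 166 and 201 CPM and intercalated cell-like cells 182 and 155 CPM. The intercalated cell-like cells held more Aqp2 than Foxi1, as given above. Their median depths were 26021.5 and 16212 UMIs, against 11382 and 9011 in principal cell-like cells. The part of principal cells in their Cryab value was not tested. Proximal tubule-like cells held 42.0 and 33.6 CPM, close to the 39.1 and 29.2 CPM of stroma-like cells. None of the 12 types passed the rule for Cryab as a whole; in podocyte-like cells 2.73% of all genes tested did. Single clusters did: Cryab was 4.36-fold lower in thick ascending limb cluster 11 (55.4 and 12.7 CPM; interval 2.82 to 6.91; 2.8% of genes passed), beside 71.3 and 85.4 CPM in cluster 5. It was also lower in proximal cluster 2 (117 and 22.2 CPM; 4.58%), where the 21 control cells held 18 UMIs of it. In clusters 11 and 2 Cryab reached the minimum only in the control library, where it was higher. In the thin limb the thinned share went from 58.3% to 30.9% of cells while the level was 1.22-fold lower (interval 1.16 to 1.28), and 59.5% of floxed UMIs lay in the top 5% of cells, as seen for Spp1 in the same cells.

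The genes most like each member in level were sought over 34 points, 17 types in 2 libraries, among 8629 genes, by Pearson's r of log2(CPM + 1). The points share libraries and depth, so r is a description. Lcn2 was closest to the neutrophil genes Chil1 (0.895), Cd177 and Stfa3. Spp1 was closest to Fabp3 (0.901), Sostdc1 and Kidins220, all highest in thick ascending limb-like cells. Vcam1 was closest to Maf (0.818), Glul and Lipa, all highest in macrophage-like cells. Clu was closest to the epithelial genes Myo5b (0.942), Dsp and Ezr, Cd44 to AB124611 (0.934), Pira2 and Cd84, and Cryab to Ankrd1 (0.799), Parm1 and Zfp185.

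Of 25 listed genes of acute injury and inflammation, 8 reached the minimum in proximal tubule-like cells. Of these, 0 were higher and 1 was lower in the floxed library, beside 4.6% of all genes tested that passed. The lower gene was Hmox1, the stress-induced haem oxygenase, at 169 and 31.1 CPM. Values of the proximal class, here and in the lists below, carry the same unequal make-up of clusters as Spp1. The median log2 ratio of the 8 was 0.06, beside -0.03 for all genes tested. The most abundant, Dcdc2a, held 234 and 260.5 CPM, and the cell cycle inhibitor Cdkn1a 128 and 136 CPM. In thin limb-like cells Itgb6 (61.2 and 22.9 CPM) and Cp (122 and 61.5 CPM) were lower, 2 of 7 beside 2.77% of all genes tested, and in ureteric bud tip-like cells 1 of 7 beside 2.22%, the stress cytokine gene Gdf15, was higher, at 57.0 and 114 CPM. Itgb6 reached the minimum only in the control library, where it was higher.

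Among 17 developmental epithelial genes that injured tubules use again, 16 reached the minimum in proximal tubule-like cells, 2 were higher and 0 lower, beside 4.6% of all genes tested. These were the keratin gene Krt19, at 16.6 and 33.4 CPM, and the Notch ligand Jag1, at 11.8 and 26.9 CPM. Both reached the minimum only through the floxed library, where they were higher, so the count of 2 to 0 carries no direction for the list. The median log2 ratio was 0.06, beside -0.03 for all genes tested, and the abundant Krt8 (414 and 363 CPM) and Cdh6 (205 and 227 CPM) did not pass. Krt19 was also higher in thin limb-like cells, at 86.4 and 184 CPM, and Sox9 in committed nephron-like cells, at 18.5 and 37.4 CPM, 1 of 15 beside 1.84% of all genes tested; Sox9 too reached the minimum only in the floxed library. In thick ascending limb-like and distal convoluted tubule-like cells 0 of 14 and 0 of 16 passed, beside 3.52% and 3.18% of all genes tested.

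Of 17 genes of mature proximal function, 15 reached the minimum in proximal tubule-like cells, 1 was higher and 3 were lower, with a median log2 ratio of -0.21. Over all genes tested 4.6% passed, with a median of -0.03. The lower ones were the organic anion transporter Slc22a6 (169.7 and 55.6 CPM), the uptake receptor Cubn (120.4 and 69.3 CPM) and Miox (76.1 and 10.4 CPM). Of these, Miox reached the minimum only in the control library, where it was higher. Kap, an androgen-responsive kidney gene, was higher, at 111 and 544 CPM. The uptake receptor Lrp2 (695 and 614 CPM) did not pass. Miox and Slc22a6 led control-rich cluster 4 and Kap led floxed-rich cluster 2, so these values carry the same unequal make-up as Spp1.

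Of 20 listed receptors, ligands and relatives of the members, 5 reached the minimum in proximal tubule-like cells and 0 passed the rule there, nor did any in the other 11 types. Itgb1, a subunit of osteopontin and VCAM-1 receptors, held 203 and 204 CPM. Genes induced by tissue dissociation, which can mimic injury, had a summed level of 2708 and 3227 CPM in proximal tubule-like cells but of 3752 and 1796 CPM in stroma-like cells, where 8 of 9 were lower beside 3.37% of all genes passing in either direction. In the proximal cells 1 of 9 was higher and 1 lower, beside 4.6% of all genes tested. The fall was not confined to stroma-like cells. Nephron progenitor-like cells went from 3713 to 1884 CPM, with 6 of 8 lower beside 3.33% of all genes tested. Committed nephron-like cells went from 1762 to 2064 CPM, with 1 of 8 higher beside 1.84%. The part of the dissociation genes in the members' differences was not tested.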

How the data were processed

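Droplet 3′ version 3 libraries of whole newborn kidney were deposited by the authors as raw UMI counts per gene and barcode, 1 matrix per library. The build was mm10 and the tool Cell Ranger 6.0.2 per the submitters' processing notes, while the counts carry version 6.0.1 per the file headers. The 2 bisulfite samples were not analysed here.

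Kept cells had at least 1000 UMIs, 500 genes and at most 15% mitochondrial UMIs. The automatic doublet threshold marked 2228 control and 0 floxed barcodes, which is a failure of the caller for the floxed cells, and the 8% of barcodes with the highest doublet scores were removed from each (1695 and 1252). Both libraries were clustered together in scanpy 1.11.5 (2000 variable genes without the 7 members, 30 components, 15 neighbours, Leiden resolution 1), giving 30 clusters. The 7362 cells of epithelial clusters were clustered again into 23, and clusters were named from marker lists by a mean log2 ratio of at least 0.5 and 0.5 above the next list, or at least 2 for shallow clusters; these thresholds were set after looking at the clusters. The members and lists were chosen with earlier results of these data known.

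UMIs were summed per type and library and given as CPM, with exact Poisson intervals for levels, conditional binomial ones for ratios and Clopper-Pearson ones for shares, all at 95% and covering counting error only. Where 1 library had 0 UMIs, 3 counts served as its floor. The size rule (at least 25 CPM and an interval beyond 1.5-fold) was tested on simulated data. The simulated counts had Poisson error only, so they cannot speak to variation between animals, free RNA or unequal clusters. No test across animals was possible. Genes named are the members, list members passing the rule in nephron and duct types (all where 5 or fewer), the 2 of each list highest in proximal tubule-like cells, and the 3 most like each member. A gene that this rule names is not reported here.

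Promoter windows came from a RefSeq table (GRCm38.p6), which held 4 of the 7 members; coordinates are from GRCm38 too. Motifs were searched on both strands, and the C/EBP letters were tightened after a first search had been seen: the looser TTNCNNAA, in 40.7% of windows, gave the same match in the Lcn2 window and none in the Spp1 window shown. Alternatives covered cell filters, doublets, resolution, separate clustering, scaling (TMM in edgeR 4.0.16, median of ratios), the minimum level and cell weights. Python 3.11.15, numpy 2.4.6, scipy 1.17.1 and pandas 2.3.3 were used.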

Additional observations from a re-analysis of the deposited data

Results flagged for a closer look

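Spp1 was higher in the floxed library in epithelial cluster 7, an unnamed cluster led by Pou3f1, Nppc and Fgf8, while it was lower past the same size rule in 5 types. The cluster held 288 control and 270 floxed cells with 22.7 and 52.5 CPM, a log2 ratio of 1.21, and 1.79% of all genes tested passed the rule there. Of its 148 floxed UMIs, 81.8% lay in the top 5% of cells, and the thinned shares of cells with a UMI were 4.86% and 5.19%. The minimum level was reached there only in the floxed library, where Spp1 was higher. The difference between this cluster and the other types was not tested.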

How the results depend on the processing

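Of the 8 differences past the size rule, lower Spp1 in proximal tubule-like and higher Vcam1 in macrophage-like cells held direction and size under all 13 other settings (log2 ratios of -2.40 to -1.27 and of 1.76 to 2.14). The settings that only lowered the minimum level, to 10 CPM or to none, could not change a pair that had already passed. The number of higher pairs, 3 as reported, was 6 with the stricter cell filter, 7 without doublet removal, 5 at Leiden resolution 2, 7 with each library clustered alone, 6 with no minimum level and 7 with equal weight to each cell. The number of lower pairs, 5 as reported, was 3 with the looser filter, 3 at resolution 2 and 12 with equal weight to each cell, which has no interval. Spp1 in distal convoluted tubule-like cells had log2 ratios of 0.55 with the looser filter and 0.55 with the 10000 deepest barcodes, both reversed, -0.59 without doublet removal and -0.52 at resolution 2. In intercalated cell-like cells it was -0.43 with the looser filter, -0.66 at resolution 2 and 0.61 (reversed) with separate clustering. In thick ascending limb-like cells it reversed to 0.11 with the stricter filter, and the stroma-like value was -0.57 with the looser filter and -0.82 with the deepest barcodes. Clu in ureteric bud tip-like cells was 0.68 with the stricter filter, 0.72 with the deepest barcodes, 0.58 at resolution 0.5, 0.64 at resolution 2 and 0.29 with separate clustering. Lcn2 in macrophage-like cells reversed to -1.11 with the deepest barcodes. The causes were not tested. Among alternatives chosen after seeing the data, Lcn2 in macrophage-like cells without S100a8 or S100a9 was -0.17 (reversed), and Spp1 in proximal cluster 1 alone was -0.042. Of 398 values for the 31 pairs short of the rule, 30 passed it under an alternative. No thin limb-like type was found at resolution 0.5, and no value could be had for distal convoluted tubule-like cells with separate clustering. Thinning to 1000 UMIs lowers shares by construction: Spp1 in thick ascending limb-like cells was then found in 32.9% and 21.8% of cells. No paired analysis was possible because each genotype had 1 library.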
